A study of Mus musculus with 45 samples.

Results

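The 6 NMDA receptor subunit genes Grin1, Grin2a, Grin2b, Grin2c, Grin2d and Grin3a were followed by RNA-Seq in the cortex, hippocampus and striatum of WT and Shank3-mutant mice. They were chosen by gene family, with earlier results of these data known, and are 6 of the 18135 genes in the deposited table. The mice were males of strain C57BL/6J aged 13 weeks, in 3 genotypes: WT, heterozygous (Shank3-HT) and homozygous (Shank3-HM) for a conventional deletion of several coding exons of Shank3. The sample labels call the homozygous mice knock-out, although Shank3 transcript was still measured in them. Each genotype was sampled 5 times in each of the prefrontal cortex (termed cortex), hippocampus and striatum, which gives 9 groups and 45 samples. The comparisons ask whether transcript levels depend on brain region and on the number of mutant Shank3 alleles.

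NMDA receptors are glutamate-gated channels that need glutamate and a co-agonist, glycine or D-serine, and that pass calcium once depolarization lifts their magnesium block. Each receptor holds the obligatory GluN1 subunit (Grin1) together with GluN2 subunits (Grin2a to Grin2d), which set kinetics and bind glutamate, or with GluN3 subunits, which bind glycine. The GluN2 tails bind PSD-95 (Dlg4), which is linked through the Dlgap proteins to Shank3, so that these receptors and Shank3 belong to the same postsynaptic scaffold. In the forebrain, GluN2B dominates early in development and GluN2A joins it during postnatal maturation, whereas GluN2D is best known from interneurons and GluN2C from the cerebellum and glia.

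The link between GluN2 subunits and the scaffold is visible in the ends of their coding sequences, which are shown because they carry the PSD-95 binding motif shared by the 4 GluN2 subunits. The last 30 coding bases before the stop codon are given 5′ to 3′ from GRCm38, with the final 12 bases, which encode the C-terminal PDZ-binding residues, in capitals. All 4 genes lie on the minus strand.
Grin2a, chr16:9577830-9577859: aagaaaatgcctagtattGAATCTGATGTC
Grin2b, chr6:135732101-135732130: gagaaactttctagtattGAGTCTGATGTC
Grin2c, chr11:115249574-115249603: aggcggatctccagcctgGAATCAGAAGTG
Grin2d, chr7:45832783-45832812: gcgcacttctccagcctgGAGTCCGAGGTA
Of the 12 capital bases, Grin2b shared 11 with Grin2a, Grin2c shared 9 and Grin2d shared 8. Of the 18 bases before them, Grin2b shared 14 with Grin2a, whereas Grin2c shared 8 and Grin2d 7.

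In GRCm38, Grin1 spans chr2:25291181-25319187, Grin2a chr16:9567898-9995560, Grin2b chr6:135713233-136173511, Grin2c chr11:115249169-115267243, Grin2d chr7:45831883-45878378 and Grin3a chr4:49661611-49845744, each on the minus strand. The longest annotated coding transcripts differ widely, from 4276 bases for Grin1 to 14634 for Grin2a and 24060 for Grin2b. Antisense genes share 13.5% of the exonic bases of Grin1 and 9.66% of those of Grin2d. The libraries were prepared with a stranded kit, but how strand entered the quantification is not given in the sources used here.

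The deposited values are normalized counts, so their sums of 26118607 to 29568983 per sample are not depth, which is unknown. Shank3 itself, read first as a check of the labels, was at 70.8% to 76.7% of the WT mean in Shank3-HT mice and at 46.6% to 50.6% in Shank3-HM mice across the 3 regions. In each region all 5 Shank3-HT samples and all 5 Shank3-HM samples lay below all 5 WT samples. Mean log2 levels of 8 striatal markers (Drd1, Drd2, Adora2a and others) were 14.1 to 14.5 in the striatum and 7.58 to 9.0 in the remaining samples, apart from 12.2 in cortex Shank3-HM sample 2. That sample, whose cortical marker level of 10.5 was also the lowest in the cortex, goes against its dissection label in part. The libraries that follow also stood apart. Hippocampus WT sample 1 had low values for long transcripts (median deviation -0.43 on the log2 scale for the 364 longest genes, 0.25 for the 2624 shortest). Striatum Shank3-HT sample 5 had a choroid plexus marker level of 10.7, and striatum WT sample 5 the highest cortical marker level of the striatum, 9.29.

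Among WT mice, Grin2a, Grin2d and Grin3a differed more from the striatum than Grin1 and Grin2c did, in the cortex as in the hippocampus. Between cortex and hippocampus, Grin1, Grin2a and Grin2c passed the test, whereas Grin2d and Grin3a did not. Grin2b did not pass in any pair of regions. Grin2a averaged 7571 ± 704 normalized counts (SD, n = 5) in the cortex and 9833 ± 1186 in the hippocampus, against 3447 ± 202 in the striatum. Grin2d and Grin3a were also lower in the striatum, whereas Grin1 and Grin2c were lowest in the hippocampus. Here and below, fold changes are differences of mean log2(normalized count + 1), tested in limma with Benjamini-Hochberg adjustment over all genes tested and a threshold of 0.05. The limma p-values judge a difference against the spread between samples within groups. That spread was pooled over all groups of a fit and moderated across genes, so that a gene has the same SE for every pair of regions. The labels do not say whether the 3 regions of a genotype came from the same 5 mice, and the tests across regions treated all samples as separate.

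Grin1, which encodes the subunit that every NMDA receptor requires, was measured in WT cortex at 15506, 15972, 16716, 15055 and 14853 normalized counts. In WT hippocampus the values were 14018, 13180, 14002, 12502 and 12451, and in WT striatum 15026, 15933, 15800, 15109 and 14110. All 5 hippocampal values lay below all cortical and all striatal ones, whereas cortex and striatum overlapped. Grin1 was higher in the cortex than in the hippocampus by 0.24 ± 0.060 (SE) on the log2 scale (limma adjusted p = 0.000869, n = 5 each). It was lower in the hippocampus than in the striatum, by a difference of -0.20 ± 0.060 (limma adjusted p = 0.00406). Under quantile normalization these differences were 0.125 and -0.128, and both still passed the limma test. Cortex and striatum differed by 0.04, with a 95% interval of -0.08 to 0.16 (limma adjusted p = 0.588).

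Grin2a encodes GluN2A, the subunit of fast-decaying receptors that accumulates at mature synapses. In WT cortex it stood at 7294, 7563, 6672, 8609 and 7718 normalized counts, in hippocampus at 7930, 10653, 10778, 9441 and 10364, and in striatum at 3721, 3498, 3389, 3466 and 3162. Every striatal value lay below every cortical and hippocampal value. The difference on the log2 scale was 1.13 ± 0.090 for cortex against striatum (limma adjusted p = 1.85e-14, n = 5 each) and 1.5 ± 0.090 for hippocampus against striatum (limma adjusted p = 2.05e-18). Hippocampus and cortex overlapped through hippocampus WT sample 1, and Grin2a was lower in the cortex by -0.37 ± 0.090 (limma adjusted p = 0.000636), or by -0.45 without that sample. The order was hippocampus, cortex and striatum, with each step past the threshold.

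Grin2b encodes GluN2B, whose receptors decay slowly and bind CaMKII. WT values were 15520, 17455, 16669, 16518 and 17188 normalized counts in the cortex, 11877, 21699, 20396, 17288 and 19317 in the hippocampus, and 16973, 18198, 16903, 18427 and 14758 in the striatum. The 3 regions overlapped, and hippocampus WT sample 1, whose long transcripts were low, was the lowest of all 45 samples. The 95% interval of the log2 difference was -0.29 to 0.11 for cortex against hippocampus, -0.23 to 0.17 for cortex against striatum and -0.14 to 0.27 for hippocampus against striatum. Without hippocampus WT sample 1, Grin2b was lower in the cortex than in the hippocampus by -0.24 (limma adjusted p = 0.0196) and higher in the hippocampus than in the striatum by 0.21 (limma adjusted p = 0.0363). The call on the hippocampal level of Grin2b thus depends on that library, whereas cortex and striatum differed by no more than 0.08 in size whichever WT library was left out.

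Grin2c, which encodes GluN2C, was measured at 1332, 1421, 1594, 1600 and 1563 normalized counts in WT cortex. The values were 1417, 1138, 1378, 1254 and 1279 in WT hippocampus and 1585, 1698, 1667, 1727 and 1603 in WT striatum. The striatal values lay above all hippocampal ones, and the cortical values overlapped with both. Grin2c was lower in the hippocampus than in the striatum by -0.36 ± 0.075 on the log2 scale (limma adjusted p = 7.29e-05, n = 5 each). It was higher in the cortex than in the hippocampus by 0.22 ± 0.075 (limma adjusted p = 0.0158), a call lost without hippocampus WT sample 2 (0.17, adjusted p = 0.0689). Cortex and striatum, neighbours in the order, differed by -0.14 (limma adjusted p = 0.0966).

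Grin2d, which encodes GluN2D, was the lowest of the GluN2 transcripts. It stood at 347, 427, 400.1, 387 and 378 normalized counts in WT cortex, at 373, 346, 317, 345 and 356 in hippocampus and at 191, 207, 211, 199 and 249.9 in striatum. The striatal values lay below all others, and cortex and hippocampus overlapped. The log2 difference was 0.87 ± 0.12 for cortex against striatum (limma adjusted p = 6.43e-08, n = 5 each) and 0.72 ± 0.12 for hippocampus against striatum (limma adjusted p = 3.48e-06). The mean log2 level of 10 inhibitory neuron markers was 10.6 in WT cortex, 9.97 in hippocampus and 10.2 in striatum. These markers include Gad1, Gad2, Slc32a1, Sst, Pvalb and Vip, and so cover inhibitory neurons at large and not interneurons alone. Their part in the Grin2d differences was not tested. Cortex and hippocampus differed by 0.16, with a 95% interval of -0.09 to 0.41.

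Grin3a, which encodes the glycine-binding GluN3A of receptors with low calcium permeability, was at 937, 1014, 868, 909 and 1024 normalized counts in WT cortex. It was at 866, 1037, 977, 971 and 1038 in WT hippocampus and at 364, 437, 453, 463 and 626 in WT striatum. The striatal values lay below all cortical and hippocampal ones, which overlapped. The highest of them, 626, came from striatum WT sample 5, the sample with the highest cortical marker level. The log2 difference was 1.04 ± 0.12 for cortex against striatum (limma adjusted p = 2.08e-10, n = 5 each) and 1.08 ± 0.12 for hippocampus against striatum (limma adjusted p = 8.05e-11), and these were 1.15 and 1.19 without that sample. Cortex and hippocampus differed by -0.04, with a 95% interval of -0.27 to 0.19.

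**Figure D1:**
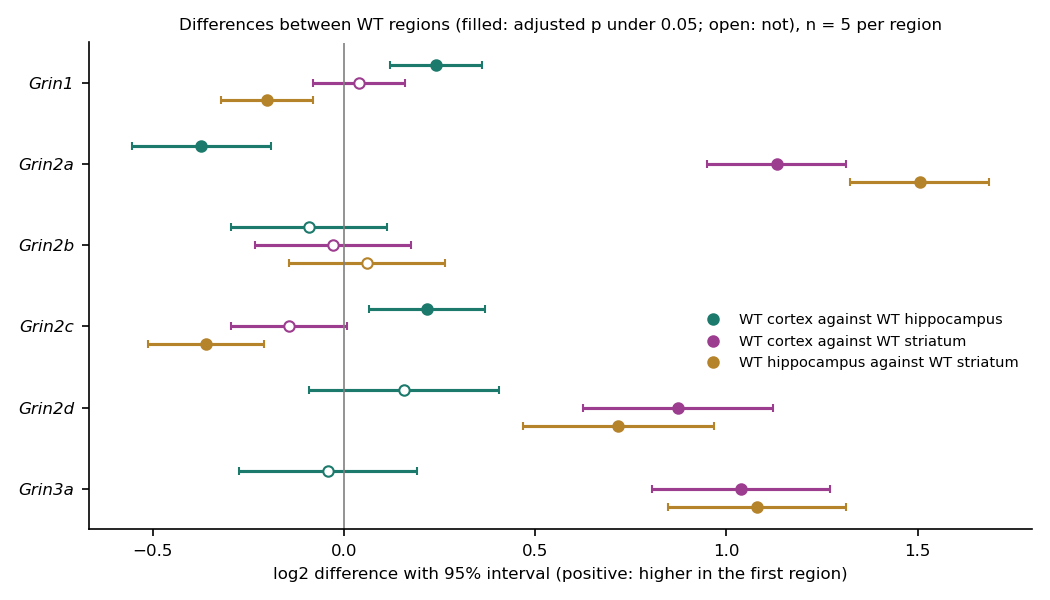
Differences of the 6 subunit transcripts between pairs of WT regions on the log2 scale (x axis) with 95% intervals, for each gene (y axis), n = 5 per region, where filled points passed an adjusted p of 0.05 in limma. Grin2a, Grin2d and Grin3a lie at 0.72 to 1.5 in both comparisons with the striatum, whereas the 3 intervals of Grin2b all include 0.

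In counts, 3 of the 6 members passed the threshold for cortex against hippocampus (2 higher, 1 lower in the cortex), where 46.6% of the 16708 genes tested did. For cortex against striatum, 3 of 6 passed, all higher in the cortex (59.3% of genes passed, and 29.3% passed as higher). For hippocampus against striatum, 5 of 6 passed, 3 higher and 2 lower in the hippocampus (56.1% of genes passed). The values of the WT groups did not overlap for 1 member, Grin1, in cortex against hippocampus (32% of genes), for 3 in cortex against striatum (46.3%) and for 5 in hippocampus against striatum (38.5%). The shares of members past the threshold were near those of all genes in the comparisons with the cortex. Against the striatum, the absolute log2 difference was at least 1 for 2 of the 6 members, Grin2a and Grin3a, both in the cortex (17.8% of genes) and in the hippocampus (16.6%). Ranked by signed log2 difference, the members lay above 37.9% (Grin2c) to 91.9% (Grin2a) of all genes for cortex against striatum and above 21.8% (Grin2c) to 94.9% (Grin2a) for hippocampus against striatum. The mean log2 level of 8 excitatory neuron markers, which include Slc17a7 and Neurod6, was 12.2 in WT cortex, 11.8 in hippocampus and 9.26 in striatum, in the same direction as Grin2a and Grin3a against the striatum. Its part in the subunit differences was not tested, and in bulk tissue fewer cells of a type and less RNA per cell cannot be told apart.

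The balance of the GluN2 transcripts was compared per length, since longer transcripts give more fragments. Divided by the length of the longest coding transcript, Grin2a made up 32.5% ± 2.12 (SD, n = 5) of the summed GluN2 level in WT cortex, 38.4% ± 0.397 in hippocampus and 17.8% ± 0.88 in striatum. Grin2b made up 43.6% ± 1.58, 42.5% ± 4.26 and 53.6% ± 1.6 on this scale, Grin2c 19.3%, 15.4% and 25.6%, and Grin2d 4.50%, 3.72% and 2.97%. Divided by coding length, Grin2b rose to 62.8%, 59.9% and 74.9% and Grin2c fell to 6.76%, 5.33% and 8.73% in the same 3 regions, while Grin2a was at 28.8%, 33.4% and 15.4%. By its mean share on either scale Grin2b was the most abundant GluN2 transcript in every region, and the share of Grin2a was lowest in the striatum. The rank of the remaining transcripts depended on the length used: in the striatum Grin2c ranked above Grin2a per transcript length and below it per coding length.

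**Figure D2:**
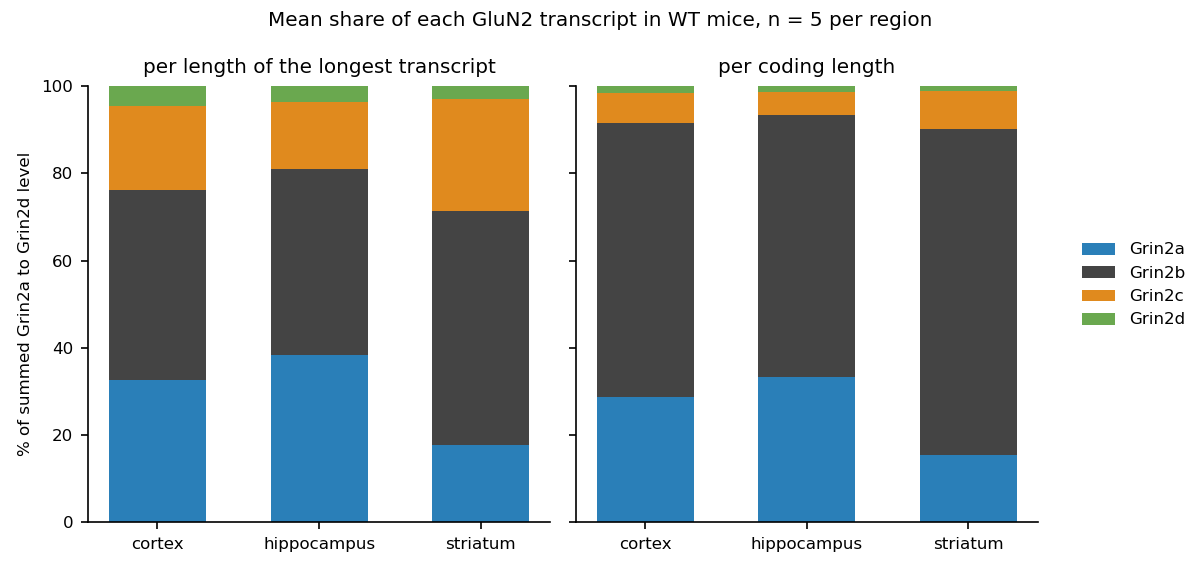
Mean share of Grin2a, Grin2b, Grin2c and Grin2d in their summed level per length (y axis, %) in the 3 WT regions (x axis), n = 5 each, per length of the longest transcript (left) and per coding length (right). The share of Grin2a is 17.8% or 15.4% in the striatum against 28.8% to 38.4% in the cortex and hippocampus.

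The ratio of Grin2a to Grin2b normalized counts, which describes the balance of both transcripts, was formed in each sample. Subunit protein was not measured. In WT cortex it was 0.470, 0.433, 0.400, 0.521 and 0.449, in WT hippocampus 0.668, 0.491, 0.528, 0.546 and 0.537, and in WT striatum 0.219, 0.192, 0.201, 0.188 and 0.214. Every striatal ratio lay below every cortical and hippocampal one. The highest, 0.668, came from hippocampus WT sample 1, in which Grin2b was low. The mean log2 ratio was higher than in the striatum by 1.16 in the cortex and by 1.44 in the hippocampus (two-sided exact permutation test, p = 0.00794 for each, the smallest that 5 against 5 samples can give, adjusted p = 0.0159). The cortex was lower than the hippocampus by -0.28 (exact p = 0.0159, adjusted p = 0.026 over 18 ratio tests), a call lost without any of cortex WT samples 2, 3 and 5 (exact permutation test, adjusted p of 0.0549, 0.0595 and 0.0549).

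Against Grin1, the Grin2a ratio averaged 0.487 ± 0.0641 (SD, n = 5) in WT cortex, 0.746 ± 0.105 in hippocampus and 0.227 ± 0.0128 in striatum. All 3 pairs of regions passed the exact permutation test (adjusted p of 0.0159 to 0.026). The ratio of Grin2b to Grin1 averaged 1.07 ± 0.0688, 1.38 ± 0.312 and 1.12 ± 0.068 and passed in none of the 3 pairs (exact permutation test, adjusted p of 0.112 to 0.286). Without hippocampus WT sample 1 it passed against cortex and against striatum, with log2 differences of -0.50 for cortex against hippocampus and 0.43 for hippocampus against striatum. Of the 18 comparisons of 6 ratios between WT regions, 13 passed, and 10 to 15 did when 1 library was left out.

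Between genotypes, no member passed the threshold in any region. The tests covered 6 genes in 6 comparisons, and their smallest adjusted p was 0.182 (limma). The share of all genes that passed was 0% for cortex Shank3-HT, 0.0121% for cortex Shank3-HM, 0.00603% for each of hippocampus Shank3-HT and Shank3-HM, 0.00607% for striatum Shank3-HT and 0.182% for striatum Shank3-HM. At an unadjusted p under 0.05, 2 of the 36 member tests passed in limma, namely Grin2a in the striatum and Grin2c in the cortex, both in Shank3-HM mice. Of all genes, 2.68% passed at that level in cortex Shank3-HT, 5.49% in cortex Shank3-HM, 5.26% in hippocampus Shank3-HT, 4.73% in hippocampus Shank3-HM and 7.43% in striatum Shank3-HT and in striatum Shank3-HM. Log2 fold changes ran from -0.19 to 0.24 with SEs of 0.045 to 0.17, and those under 0.1 in size are given by range only. The Shank3-HT and Shank3-HM comparisons of a region share their WT samples.

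**Figure D3:**
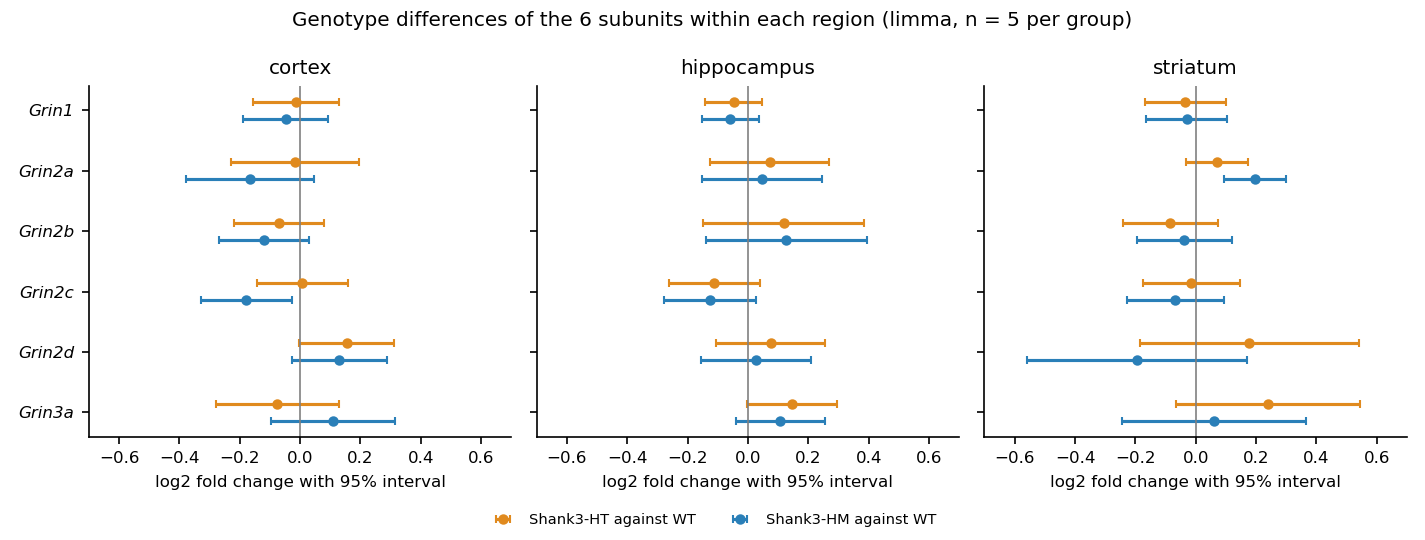
Log2 fold changes of the 6 subunit transcripts (y axis) in Shank3-HT and Shank3-HM mice against WT mice (x axis) with 95% intervals from limma, by region, n = 5 per group. The intervals include 0 in 34 of 36 cases, the exceptions being Grin2a in striatum Shank3-HM (0.20) and Grin2c in cortex Shank3-HM (-0.18).

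Grin1 was at or slightly below the WT mean in all 6 comparisons, with log2 fold changes of -0.06 to -0.01. In the cortex of Shank3-HM mice it was at 16347, 12386, 15312, 16809 and 15030 normalized counts. The low value of 12386 came from sample 2, the sample with high striatal markers, and the other 4 lay within the WT range or just above it. As a share of the WT mean, Shank3-HM mice were at 97.2% for cortex, 95.9% for hippocampus and 98.2% for striatum. The 95% intervals of the 6 log2 fold changes lay between -0.19 and 0.13, so that changes of the obligatory subunit beyond about these sizes fell outside them.

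Grin2a in the striatum was the member with the smallest p. The 5 Shank3-HM samples were at 3823, 3971, 4193, 3843 and 3926 normalized counts and the 5 Shank3-HT samples at 3686, 3527, 3834, 3632 and 3391, against 3162 to 3721 in WT mice. All Shank3-HM values lay above all WT values, whereas those of Shank3-HT mice overlapped with both. Of all genes, 1.1% lay higher in striatum Shank3-HM than in WT with no overlap. The log2 fold change was 0.20 ± 0.049 (SE) in Shank3-HM mice (limma unadjusted p = 0.000793, adjusted p = 0.182, n = 5 each), and under 0.1 in Shank3-HT mice (limma adjusted p = 0.802). Over all alternatives the Shank3-HM value stayed between 0.17 and 0.23, with adjusted p of 0.123 to 0.435 in limma. Without striatum WT sample 5, which had the lowest Grin2a level and the highest cortical marker level, it was 0.17 (adjusted p = 0.332).

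Grin2a was higher in the cortex and hippocampus than in the striatum of WT mice, and the marker levels of these striatal samples are therefore given. The mean log2 level of 6 cortical markers was 7.71 to 9.19 in the striatum of Shank3-HM mice and 8.10 to 9.29 in that of WT mice, and that of 8 excitatory neuron markers was 7.67 to 10.3 against 8.58 to 10.6. The mean log2 level of 6 hippocampal markers (Prox1, Fibcd1, C1ql2, Dsp, Wfs1 and Spink8) was 6.75 to 7.08 in the striatum of Shank3-HM mice and 6.67 to 7.58 in that of Shank3-HT mice, against 6.52 to 6.71 in WT striatum and 10.7 to 10.9 in WT hippocampus. All 5 Shank3-HM samples thus lay above all 5 WT samples in this mean, as they did in Grin2a, which the remaining marker lists did not show. Wfs1 was itself highest in the striatum, and without it, an alternative chosen after seeing the data, the mean was 5.67 to 6.09 in Shank3-HM against 5.45 to 5.63 in WT striatum. Single markers did not share this: Fibcd1 was lower in all 5 Shank3-HM samples (8.13 to 8.64) than in WT striatum (8.71 to 8.99), and the other 5 overlapped. Among Shank3-HT mice, sample 5, the library with high choroid plexus markers, had the highest mean of the 6 markers of all striatal samples (7.58). Its Grin2a was the lowest of its group (3391 normalized counts). Sample 2 had a mean of 7.17 with Grin2a at 3527, within the WT range. In samples 1, 3 and 4 Grin2a was at 3686, 3834 and 3632. Whether Grin2a followed the marker mean over these 5 samples was not tested. The part of cortical or hippocampal tissue in the Grin2a value was not tested.

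In the cortex Grin2a was at 6924, 5235, 6862, 8196 and 6742 normalized counts in Shank3-HM mice, against 6672 to 8609 in WT mice. The groups overlapped, and the lowest value came from sample 2, the sample with high striatal markers. The log2 fold change was -0.17 ± 0.10 (limma adjusted p = 0.882), or -0.08 without that sample. Cortical Shank3-HT values were 7043, 7904, 6536, 7218 and 8781. In the hippocampus, Grin2a was at 9603, 10796, 9744, 9764 and 10598 in Shank3-HM mice and at 9204, 10135, 9537, 9695 and 13262 in Shank3-HT mice, which overlapped with WT mice. The log2 fold changes in cortical Shank3-HT and in hippocampal mice ran from -0.02 to 0.07.

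**Figure D4:**
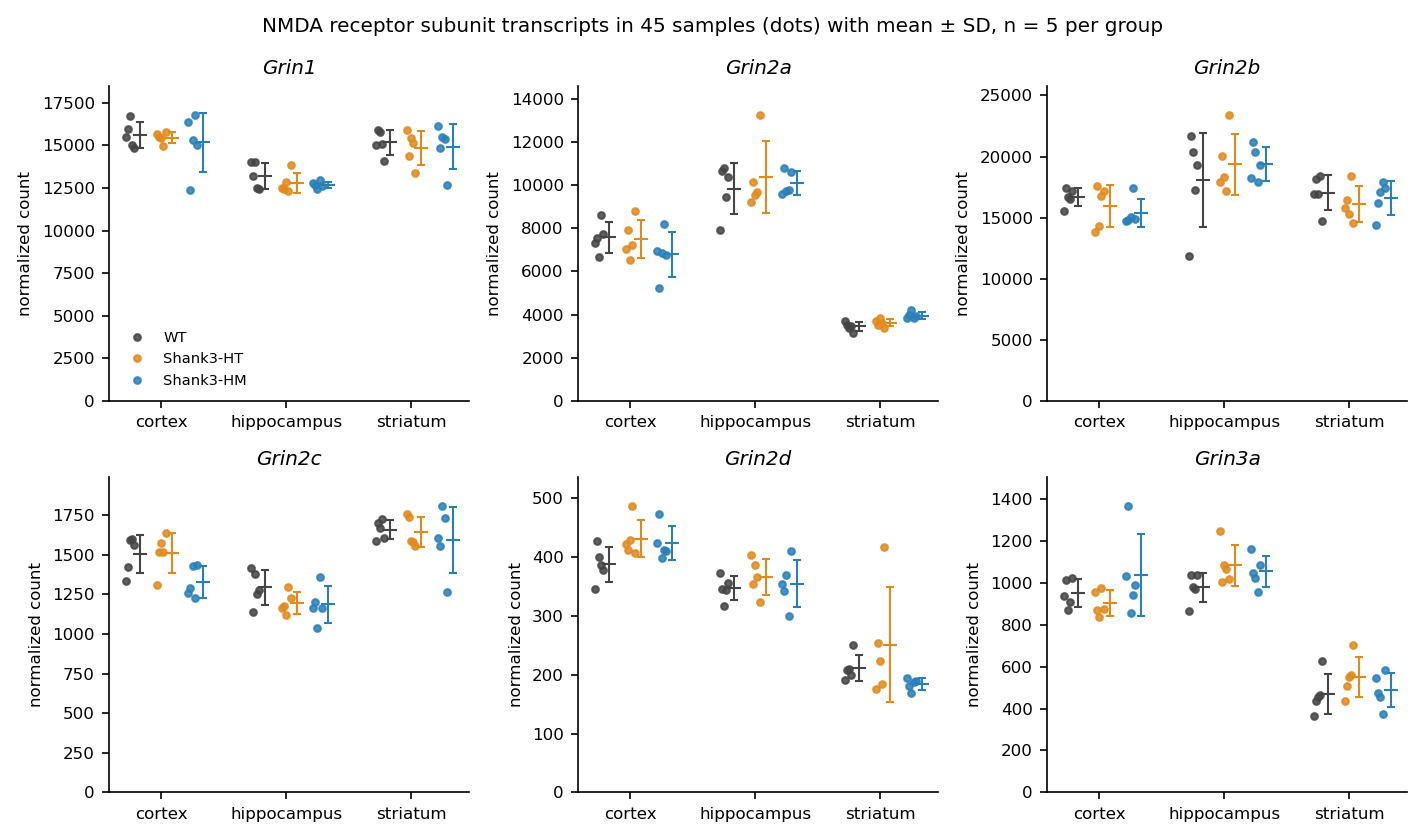
Normalized counts (y axis, from 0) of the 6 subunit transcripts in each of the 45 samples (dots) by region (x axis) and genotype (color), with mean ± SD of each group of 5. Striatal Grin2a in Shank3-HM mice (3823 to 4193) lies above the WT samples (3162 to 3721), and the genotypes overlap in the remaining panels.

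Grin2b in the cortex was at 14712, 14828, 15037, 17428 and 14847 normalized counts in Shank3-HM mice and at 13839, 17624, 14287, 16809 and 17184 in Shank3-HT mice. In Shank3-HM mice 4 of the 5 values lay below the WT minimum of 15520, and sample 4 lay within the WT range. The log2 fold change in Shank3-HM mice was -0.12 ± 0.071 (limma adjusted p = 0.881). In the hippocampus, values were 18214, 21215, 20389, 17906 and 19320 in Shank3-HM mice and 17898, 20045, 18288, 17188 and 23427 in Shank3-HT mice. The log2 fold changes of 0.13 and 0.12 there turned to -0.02 and -0.03 without hippocampus WT sample 1. Striatal values of 14430 to 17915 in Shank3-HM mice and 14528 to 18376 in Shank3-HT mice overlapped with those of WT mice.

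Grin2c in the cortex was at 1256, 1287, 1430, 1226 and 1437 normalized counts in Shank3-HM mice, at 1309, 1515, 1572, 1518 and 1638 in Shank3-HT mice, and at 1332 to 1600 in WT mice. In Shank3-HM mice 3 values lay below the WT minimum and 2 within the WT range. The log2 fold change was -0.18 ± 0.071 in Shank3-HM mice (limma unadjusted p = 0.0233, adjusted p = 0.878, n = 5 each). In the hippocampus it was -0.13 in Shank3-HM and -0.11 in Shank3-HT mice (limma adjusted p of 0.92 and 0.926), and the former was -0.080 without Shank3-HM sample 3. Grin2c values there ran from 1040 to 1358 and from 1117 to 1296 against 1138 to 1417 in WT mice. Striatal values were 1265 to 1806 in Shank3-HM mice and 1554 to 1754 in Shank3-HT mice, and overlapped with 1585 to 1727 in WT mice.

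Grin2d in the cortex was at 423, 413, 429, 487 and 408 normalized counts in Shank3-HT mice and at 425, 474, 398, 412 and 411 in Shank3-HM mice, against 347 to 427 in WT mice. The groups overlapped, and the log2 fold changes were 0.16 ± 0.075 and 0.13 ± 0.075 (limma adjusted p of 1.0 and 0.879). In the striatum, Shank3-HT values were 176, 254, 223, 185 and 417. The value of 417 came from sample 5, the sample with high choroid plexus markers. The log2 fold change of 0.18 turned to -0.02 without it. Striatal Shank3-HM values of 169 to 194 overlapped with 191 to 249.9 in WT mice, with a log2 fold change of -0.19 ± 0.17 (limma adjusted p = 0.876). Hippocampal values were 323 to 403 in Shank3-HT mice and 299 to 410.3 in Shank3-HM mice.

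Grin3a in the hippocampus was at 1246, 1001, 1086, 1064 and 1018 normalized counts in Shank3-HT mice and at 1162, 1047, 1020, 957 and 1082 in Shank3-HM mice, against 866 to 1038 in WT mice. The groups overlapped. The log2 fold changes were 0.15 ± 0.070 in Shank3-HT mice and 0.11 ± 0.070 in Shank3-HM mice (limma adjusted p of 0.926 and 0.92). They fell to 0.094 without Shank3-HT sample 1 and to 0.065 without WT sample 1, the library with low long transcripts. In the striatum, Shank3-HT values were 437, 509, 551, 558 and 701, with a log2 fold change of 0.24 ± 0.14 (limma adjusted p = 0.762), and the highest again came from sample 5. This Grin3a value was 0.15 without that sample, the library with high choroid plexus markers, and 0.35 without striatum WT sample 5. Cortical Shank3-HM values were 1033, 1365, 853, 943 and 989, and the highest, from sample 2, lay above the WT range of 868 to 1024. The log2 fold change there was 0.11 ± 0.097 (limma adjusted p = 0.908), or 0.0055 without sample 2, the library with high striatal markers.

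The ratio of Grin2a to Grin2b was compared between genotypes in the same way. In the striatum it was 0.265, 0.245, 0.245, 0.214 and 0.225 in Shank3-HM mice and 0.234, 0.214, 0.251, 0.198 and 0.233 in Shank3-HT mice, against 0.188 to 0.219 in WT mice. In Shank3-HM mice 4 of the 5 ratios lay above the WT range. The mean log2 ratio was higher by 0.24 in Shank3-HM mice (two-sided exact permutation test, p = 0.0159, adjusted p = 0.286 over 36 ratio tests) and by 0.15 in Shank3-HT mice (exact p = 0.0794, adjusted p = 0.571), and neither passed. Striatum Shank3-HM sample 1, at 0.265, had the lowest long-transcript values of the striatum (median deviation -0.095 on the log2 scale). WT sample 1, at 0.219, had the lowest of the WT striatum (-0.044). Shank3-HT sample 3, at 0.251, had a deviation of -0.0018. The part of transcript length in these ratios was not tested. In the cortex, ratios were 0.471, 0.353, 0.456, 0.470 and 0.454 in Shank3-HM mice and 0.509, 0.448, 0.457, 0.429 and 0.511 in Shank3-HT mice, both overlapping with WT mice. In the hippocampus they were 0.527, 0.509, 0.478, 0.545 and 0.549 in Shank3-HM mice and 0.514, 0.506, 0.522, 0.564 and 0.566 in Shank3-HT mice, which also overlapped with WT mice. The cortical and hippocampal differences were under 0.1 in size on the log2 scale.

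**Figure D5:**
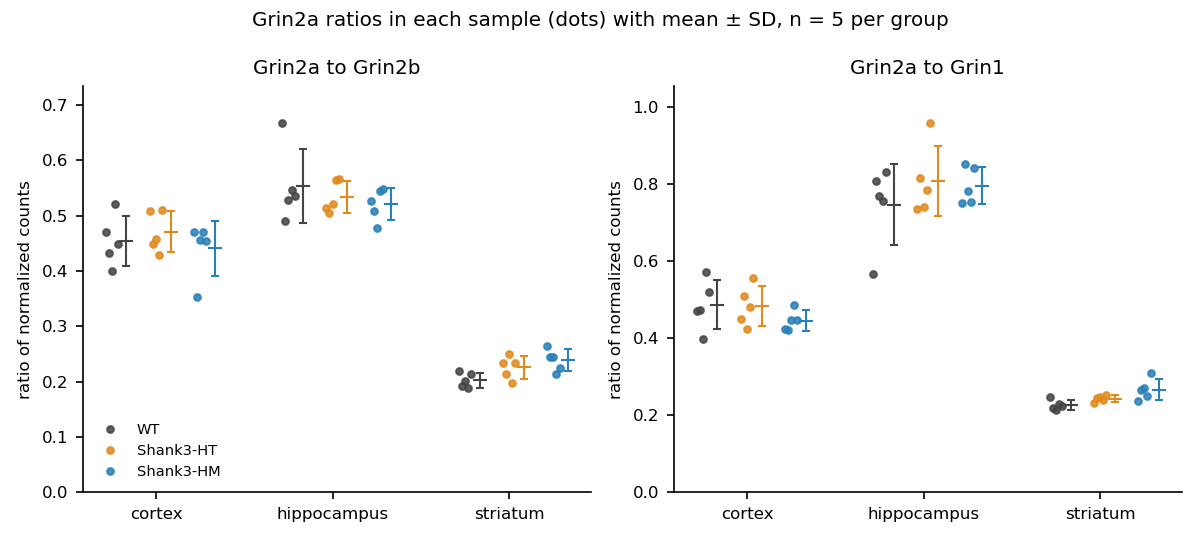
Ratio of Grin2a to Grin2b (left) and of Grin2a to Grin1 (right) normalized counts (y axis, from 0) in each of the 45 samples (dots) by region (x axis) and genotype (color), with mean ± SD of each group of 5. Striatal Grin2a to Grin2b ratios run from 0.188 to 0.265 and all lie below the cortical and hippocampal ones (0.353 to 0.668).

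Relative to Grin1, striatal Grin2a averaged 0.267 ± 0.0275 (SD, n = 5) in Shank3-HM mice and 0.244 ± 0.00828 in Shank3-HT mice, against 0.227 ± 0.0128 in WT mice. The log2 differences were 0.23 (exact permutation p = 0.0159, adjusted p = 0.286) and 0.10 (exact permutation p = 0.0476, adjusted p = 0.429). None of the 36 genotype tests of the 6 ratios passed the threshold, and 4 had an unadjusted exact permutation p under 0.05.

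Whether a genotype effect differed between regions was tested directly. None of the 36 tests of members passed (limma, 9 groups in 1 fit), where 0.0539% of all genes passed for the Shank3-HM effect in cortex against striatum, 0.0718% for that in hippocampus against striatum and 0% in the other contrasts. At an unadjusted p under 0.05, 1 member test passed in limma, where 560 to 935 of the 16708 genes did per contrast. It was that of Grin2a in a contrast in which 906 genes passed at that level, and its Shank3-HM effect was lower in the cortex than in the striatum by -0.36 ± 0.13 on the log2 scale (limma unadjusted p = 0.00663, adjusted p = 0.706), or by -0.27 without cortex Shank3-HM sample 2. For the Grin2a to Grin2b ratio, the Shank3-HM effect was lower in the hippocampus than in the striatum by -0.32 (exact permutation p = 0.00998, adjusted p = 0.0599 over 6 tests). It was lower in the cortex than in the striatum by -0.28 (exact permutation p = 0.0391, adjusted p = 0.117). None of the 6 ratio tests passed, although 2 did without cortex WT sample 3 and 1 each without hippocampus WT sample 2 and striatum Shank3-HM sample 4.

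The genes whose log2 levels followed each member most closely over the 45 samples were named as a description, since the 9 groups share regions and genotypes and the samples are not independent points. For Grin2a they were Tcf4 (Pearson's r = 0.982), Clstn2 (0.979) and Prkca (0.978), the last a protein kinase C that phosphorylates NMDA receptors. Grin3a was followed by Dner (0.980), Pnoc (0.957) and Grik1 (0.956), and Grin2d by Btbd11 (0.938), Kcnj16 (0.936) and Elfn1 (0.934). Likeness was lower for Grin1, with Pld3 at 0.902, Inka2 at 0.898 and Dmtn at 0.887. Grin2c was followed by Sptbn4 (0.891), Them6 (0.883) and Icmt (0.869). Grin2b was followed by Klhl11 (0.825), Ncoa1 (0.822) and Gria2 (0.821), the last a subunit of AMPA receptors.

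The partners of the receptor were read from 5 lists of 80 genes, 78 of which were tested. None passed the threshold in any of the 6 genotype comparisons (limma), and 2 to 7 per comparison had an unadjusted p under 0.05, where 2.68% to 7.43% of all genes did. Median log2 fold changes over these 78 genes ran from -0.03 to 0.04. Among the 13 scaffold genes, the smallest unadjusted p belonged to Dlg2 (PSD-93) in striatum Shank3-HM, at 0.20 on the log2 scale, to Dlgap2 in striatum Shank3-HT at -0.21, to Homer2 in cortex Shank3-HM at -0.21, to Dlgap4 in cortex Shank3-HT at -0.07, to Homer3 in hippocampus Shank3-HM at -0.14 (-0.089 without WT sample 3) and to Shank2 in hippocampus Shank3-HT at 0.14 (0.072 without WT sample 1). Among the 19 signalling genes it belonged to Camk2d, a CaMKII subunit, in hippocampus Shank3-HM (0.64) and Shank3-HT (0.44), to Ppp1r9b (spinophilin) in striatum Shank3-HM (-0.19), to Rasgrf2 in striatum Shank3-HT (0.34) and cortex Shank3-HM (-0.22), and to Rasgrf1 in cortex Shank3-HT (-0.10). Rasgrf2 was at 0.21 in the former without striatum WT sample 1 and at -0.14 in the latter without cortex Shank3-HM sample 2.

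For the 15 kinase and phosphatase genes, the genes with the smallest p included Akap5 in hippocampus Shank3-HM (0.20) and Shank3-HT (0.15) and in striatum Shank3-HT (-0.19), and Cdk5r1 in cortex Shank3-HM (-0.17). For the 19 trafficking and accessory genes it was Reln in striatum Shank3-HM (0.21), Lin7a in striatum Shank3-HT (-0.20) and hippocampus Shank3-HM (0.23), Apba1 in hippocampus Shank3-HT (0.13), Kif17 in cortex Shank3-HM (0.15) and Dab1 in cortex Shank3-HT (-0.12). For the co-agonist supply list it was Phgdh, which starts serine synthesis, in striatum Shank3-HM (0.22) and Shank3-HT (0.19). In hippocampus Shank3-HM (0.36) and cortex Shank3-HM (0.47) it was Glra2, a glycine receptor subunit and not itself a supply gene. In hippocampus Shank3-HT it was Slc7a10, a D-serine transporter (-0.28), and in cortex Shank3-HT Psph (0.19). None of these values passed the test. Those that moved by over 1.5 times with 1 library left out were Lin7a in hippocampus Shank3-HM (0.076 without WT sample 1), Glra2 in cortex Shank3-HM (0.308 without sample 2) and Akap5 in striatum Shank3-HT (-0.12 without sample 3).

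Between WT regions, most partner genes passed: 56 of 78 for cortex against hippocampus (33 higher, 23 lower), 69 for cortex against striatum (32 higher, 37 lower) and 58 for hippocampus against striatum (31 higher, 27 lower). These are 71.8%, 88.5% and 74.4% of the partners, against 46.6%, 59.3% and 56.1% of all genes. The median log2 difference over the partners was 0.09, -0.02 and 0.05, and that over all genes -0.01, -0.01 and 0.00.

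Of the 13 scaffold genes, 9 were higher and 2 lower in the cortex than in the hippocampus, 6 higher and 7 lower in the cortex than in the striatum, and 7 higher and 6 lower in the hippocampus than in the striatum. The 3 with the smallest adjusted p for cortex against striatum were Dlgap1 (2.15 on the log2 scale), Shank1 (2.72) and Homer2 (2.27), all higher in the cortex. For hippocampus against striatum they were Homer3 (2.88), higher in the hippocampus, and Dlg1 (-1.25) and Dlgap3 (-1.26), lower there. For cortex against hippocampus they were Homer3 (-3.21), Dlg1 (0.98) and Dlgap3 (0.73). Homer proteins tie metabotropic glutamate receptors to Shank proteins, and Dlgap proteins lie between PSD-95 and Shank. All values of partners named for WT regions passed the limma test.

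Of the 19 signalling genes, 7 passed as higher and 6 as lower for cortex against hippocampus, 8 and 8 for cortex against striatum, and 9 and 4 for hippocampus against striatum. The genes with the smallest adjusted p for cortex against striatum were Rasgrf2 (3.18 on the log2 scale), Camk2g (1.91) and Camk2a (1.22). For hippocampus against striatum they were Camk4 (-2.23), Rasgrf2 (1.87) and Camk2a (1.13), and for cortex against hippocampus Camk2b (-0.87), Nos1 (-1.42) and Rasgrf1 (-0.66). Camk2a, the CaMKII subunit that binds GluN2B, was thus lower in the striatum than in both other regions, whereas Grin2b with all libraries was not past the threshold for the cortex or the hippocampus against the striatum.

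Of the 15 kinase and phosphatase genes, 5 passed as higher and 6 as lower for cortex against hippocampus, 6 and 7 for cortex against striatum, and 6 and 6 for hippocampus against striatum. Ptpn5 led both striatal comparisons. It encodes STEP, a striatum-enriched phosphatase that dephosphorylates GluN2B, and it was lower in the cortex (-2.04 on the log2 scale) and the hippocampus (-2.87) than in the striatum. Akap5 (-1.79 and -2.45), which anchors protein kinase A, and Prkar2b, a regulatory subunit of that kinase, (-1.54 and -2.43) were lower in the same way. For cortex against hippocampus the leading genes included Ptk2b (-1.01), a tyrosine kinase of NMDA receptor signalling, and Ptpn5 (0.83).

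Of the 19 trafficking and accessory genes, 10 passed as higher and 6 as lower for cortex against hippocampus, 8 and 9 for cortex against striatum, and 7 and 9 for hippocampus against striatum. Neto2 (-1.56 and -2.10) and Reln (-1.47 and -1.79) were lower in the cortex and the hippocampus than in the striatum. Apba1 was higher in the cortex than in the striatum (1.29) and than in the hippocampus (0.65). Kif17, the motor that carries GluN2B vesicles, was lower in the hippocampus than in the striatum (-1.65) and higher in the cortex than in the hippocampus (0.70), and Lin7c was lower in the cortex than in the hippocampus (-0.68).

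Of the 12 genes tested from the co-agonist supply list, 5 passed for cortex against hippocampus (46.6% of all genes), 10 for cortex against striatum (59.3%) and 4 for hippocampus against striatum (56.1%). Slc1a4, which carries serine, was higher in the cortex (0.65 on the log2 scale) and the hippocampus (0.36) than in the striatum, and 0.29 higher in the cortex than in the hippocampus. Phgdh was lower in the cortex than in the striatum (-0.75) and than in the hippocampus (-0.64), and Psat1, the next enzyme of serine synthesis, was lower in the cortex (-0.43) and the hippocampus (-0.30) than in the striatum. Slc7a10 was higher in the hippocampus than in the striatum (0.43), and Slc38a1 higher in the cortex than in the hippocampus (0.38).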

How the data were processed

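The authors sequenced stranded mRNA libraries, quantified transcripts with Salmon 1.1.0 (GC bias correction), imported them with tximport and normalized them with DESeq2. The submitters' processing notes give DESeq2 1.26.0, R 3.6.2 and the build GRCm38, whereas the study's methods name other versions of DESeq2 and R, and which made the table is not known. The deposited signal values are normalized counts with decimals (at most 2.67% of the values of a sample lay within 0.01 of a whole number), so count tests were not applied and depth and its precision are unknown. The table's code for the homozygous columns differs from the labels, and they were read as Shank3-HM as the study's supplement heads them. There were 0 columns without a sample.

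On the scale of log2(value + 1), all genes whose mean reached 10 were fitted in limma 3.58.1 (R 4.3.3, intensity trend) per region for genotypes (15 samples) and in 1 fit of 9 groups for regions and interactions, with Benjamini-Hochberg adjustment over all genes tested (16482 to 16708). For ratios per sample, a two-sided exact permutation test was run (252 assignments, smallest p 0.00794), adjusted over 36, 18 and 6 tests. Identifiers were matched to GENCODE gene names (18120 of 18135). Transcript and coding lengths are from the GENCODE M21 annotation in place of the planned RefSeq lengths, which the tables at hand do not give.

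The rule for named genes took the 6 members, Shank3, 3 genes most like each member, and per list and comparison up to 3 genes past the threshold or else the gene with the smallest p, and some values that this rule takes are not reported here. Members, lists and markers were chosen with earlier results of these data known. Scripts were tested on simulated data. Alternatives were limma without trend, quantile normalization, no filter, a minimum mean of 100, 0.1 in place of 1 as pseudocount (ratios: 1 added), only the groups compared, a replicate block, and leaving out each library. Python 3.11.15, numpy 2.4.6, pandas 2.3.3 and matplotlib 3.10.9 were used.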

Additional observations from a re-analysis of the deposited data

Results flagged for a closer look

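In 9 groups of 5 samples, the highest or lowest sample lay apart from the others, with a gap of more than 0.71 of the group's range. Chance gives about 1 such group in 20, so that the number of groups set apart (3 of 54 for levels, 6 of 54 for ratios) is near what chance gives for levels. Grin2a in hippocampus Shank3-HT sample 5 was 13262 normalized counts, against 9204 to 10135 in the other 4. Grin2b in cortex Shank3-HM sample 4 was 17428, against 14712 to 15037. Grin2d in cortex Shank3-HT sample 4 was 487, against 408 to 429.

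The first ratios set apart belong to cortex Shank3-HM sample 2, the sample with high striatal markers: Grin2a to Grin2b at 0.353 (others 0.454 to 0.471), Grin2d to Grin1 at 0.0383 (others 0.0245 to 0.0273) and Grin3a to Grin1 at 0.110 (others 0.0557 to 0.0658). In hippocampus WT sample 1, whose long transcripts were low, Grin2a to Grin1 was 0.566 (others 0.755 to 0.832). In hippocampus WT sample 2, Grin2c to Grin1 was 0.0863 (others 0.0984 to 0.103). In striatum WT sample 5, which had the highest cortical marker level, Grin2d to Grin1 was 0.0177 (others 0.0127 to 0.0133). What set these samples apart was not tested.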

How the results depend on the processing

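Of 75 values of members and ratios recomputed under every alternative, 24 passed the threshold, 0 of these reversed and 14 were lost in at least 1 alternative, 13 of them to the replicate block for ratios. Of those that did not pass, 7 passed and 8 changed sign in at least 1 alternative. Whether replicate numbers pair the samples was not settled, since same-numbered samples were not compared with differently numbered ones. Correlations of the deviations of same-numbered samples ran from -0.12 to 0.15 across genotypes and from -0.10 to 0.23 across regions. In none of the 6 and 9 sets were all over 0.1. Across regions 16 of 45 were over 0.1 (median 0.067), and for WT hippocampus and striatum 4 of 5 were (0.039 to 0.20). The correlations of samples numbered 1 were all positive, from 0.048 to 0.23. Whether equal numbers mark 1 mouse cannot be told from the labels. The replicate block changed no count of members past the threshold. For ratios between WT regions it left 0 past the threshold (adjusted p = 0.0865), since the exact sign-flip test of 5 pairs cannot go below 0.0625. Under quantile normalization Grin1 in WT cortex against striatum turned to -0.0025, the Grin2a to Grin2b tests of a genotype effect between regions passed 1 time (Shank3-HM, hippocampus against striatum), and the region calls on Grin2c to Grin1 (cortex against striatum, adjusted p = 0.143) and Grin3a to Grin1 (cortex against hippocampus, adjusted p = 0.181) were lost. The cause was not tested. With only the compared groups fitted, Grin2c passed for cortex against striatum (limma adjusted p = 0.0474).

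With each library left out, log2 values ran from -0.027 to 0.19 for Grin2b in hippocampus Shank3-HT, -0.018 to 0.20 for Grin2b in hippocampus Shank3-HM, -0.023 to 0.29 for Grin2d in striatum Shank3-HT and -0.011 to 0.21 for Grin2b in WT hippocampus against striatum. They ran from -0.018 to 0.23 for Grin3a to Grin1 in cortex Shank3-HM, -0.00036 to 0.24 for Grin2b to Grin1 in hippocampus Shank3-HT and -0.026 to 0.35 for Grin2d to Grin1 in striatum Shank3-HT. Counts ran from 0 to 2 for the Grin2a to Grin2b genotype effects between regions and from 10 to 15 for ratios between WT regions. An alternative chosen after seeing the data recomputed the 75 values of partner genes that the naming rule takes: 0 of the 45 that passed were lost, and 0 of the 30 that did not pass changed sign or passed. Depth is unknown, so that a limit of detection cannot be given.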

Other observations

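Grin3b, which encodes the GluN3B subunit best known from motor neurons, was at 0 to 18.5 normalized counts in the 45 samples and did not reach the mean of 10 needed for a test. Mean levels in WT mice were 4.66 for cortex, 2.66 for hippocampus and 7.84 for striatum. The gene shares 32.1% of its exonic bases with Tmem259 on the opposite strand.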
